A study of Mus musculus with 3 samples.

Results

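The genes described here encode 10 inducible regulators, most of them inhibitors, of the NF-κB, MAP kinase and cytokine receptor pathways: Nfkbia, Nfkbie, Nfkbiz, Tnfaip3, Zfp36, Socs3, Dusp1, Dusp2, Dusp4 and Dusp5. They were chosen by symbol, and all 10 were found among the 24346 gene symbols listed for each library. RNA sequencing compared Gr-1+ CD11b+ cells (labelled neutrophil and monocyte, Gr-1+ cells hereafter), CD64- dendritic cells (DC) and CD64+ macrophages taken from colons of BALB/c mice described as healthy. Each population had 1 library, and the age and number of the mice, the gating and any pooling are not stated in the labels. No spread between replicates can be had from 1 library, so no test and no p-value is given, and every difference is one between libraries.

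NF-κB dimers rest in the cytoplasm bound to IκB proteins, and are freed when the IκB kinase marks these proteins for degradation. Freed NF-κB, like active MAP kinases, switches on genes whose products then restrain the same pathway. In the gut, myeloid cells live beside bacterial ligands of Toll-like receptors, which feed both pathways.

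Levels are FPKM, fragments per kilobase of transcript scaled to library size, and differences are of log2(FPKM + 1). A gene was called higher or lower by a rule of size, namely libraries at least 2 log2 units apart with no less than 10 FPKM in the upper one. Shares of all genes given below are over the 17329 genes at 1 FPKM or more in any library. Only 7087 genes, all 10 members among them, reached 10 FPKM in any library. At that floor such shares therefore understate those among genes that could be called. The steps of low values put the depth of the DC library at 3.68 times, and that of the macrophage library at 2.70 times, that of Gr-1+ cells. Olfactory and vomeronasal receptor genes, which these cells should not use, gave a silent-gene level, the 95th percentile over 1452 genes, of 9.69 FPKM in Gr-1+ cells, 0.611 in DC and 3.24 in macrophages. Neutrophil markers (13 genes) summed to 181530 FPKM in Gr-1+ cells, 1820 in DC and 4831 in macrophages (Camp was listed at 0 in both DC and macrophages), while macrophage markers (12 genes) summed to 2848, 3489 and 29243 FPKM in those libraries. Dendritic cell markers (12 genes) summed to 94.7 FPKM in Gr-1+ cells, 1583 in DC and 451 in macrophages. Monocyte markers (7 genes) summed to 1165 FPKM in Gr-1+ cells, 1545 in DC and 3541 in macrophages. All 7 were lower in Gr-1+ cells than in macrophages (median difference -1.60, with Ccr2 and F13a1 past the size rule). Against DC, 4 had a positive and 3 a negative difference, and Chil3 was higher in Gr-1+ cells by the size rule (2.74). In Gr-1+ cells 5 of the 7 lay above the silent-gene level. This list does not settle the monocyte part of the Gr-1+ label. The DC library also held all 10 B cell markers (79.7 FPKM in sum in Gr-1+ cells, 3511 in DC, 166 in macrophages) and all 8 plasma cell markers (629, 21256 and 1355 FPKM in sum) above its silent-gene level. Epithelial markers (10 genes) summed to 1442 FPKM in Gr-1+ cells, 691 in DC and 420 in macrophages. T and NK cell markers (9 genes found) summed to 44.9 FPKM in Gr-1+ cells, 124 in DC and 80.6 in macrophages. In DC all 9 lay above the silent-gene level. Mast cell and eosinophil markers (10 genes) summed to 34.7 FPKM in Gr-1+ cells, 132 in DC and 29.0 in macrophages, with Epx at 0 in each. The part of these other cells in the results was not tested. In bulk RNA, fewer cells of a type and less RNA per cell cannot be told apart.

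Most of the inhibitor genes had their lowest level in DC, and Dusp4 was near or below the silent-gene level outside DC. Together the 10 genes summed to 9720 FPKM in Gr-1+ cells, 2848 in DC and 8041 in macrophages, which is 1.12%, 0.427% and 0.919% of all FPKM of those libraries. DC had the lowest value of 9 of the 10 genes and the highest of the remaining one, Dusp4. With libraries scaled to equal FPKM sums, Dusp2 and Dusp5 were lowest in Gr-1+ cells instead. The share of all genes with their lowest value in DC was not counted, so the 9 is not read as particular to these genes. Genes at 1 FPKM or more numbered 16004 in Gr-1+ cells, 11810 in DC and 13047 in macrophages. That cut lies below the silent-gene level of Gr-1+ cells and of macrophages but above that of DC. These counts therefore do not compare numbers of expressed genes. The highest value of 5 genes (Nfkbia, Nfkbiz, Tnfaip3, Socs3 and Dusp1) was in Gr-1+ cells, and that of 4 (Nfkbie, Zfp36, Dusp2 and Dusp5) in macrophages, although Zfp36 and Dusp5 were highest in Gr-1+ cells with equal 75th percentiles. Every value but that of Dusp4 in Gr-1+ cells lay above the silent-gene level of its library. By the estimated depth, each value outside Dusp4 rested on about 864 or more fragments.

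**Figure D1:**
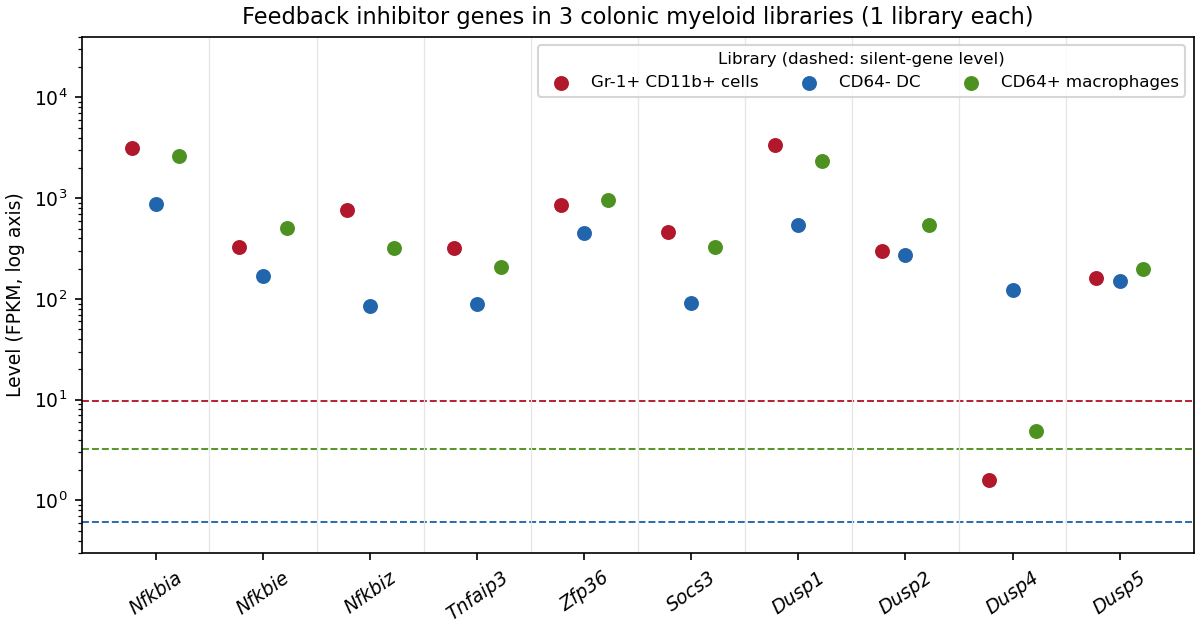
FPKM (log axis) of the 10 inhibitor genes in Gr-1+ CD11b+ cells, CD64- DC and CD64+ macrophages, 1 point per library, with a dashed line at the silent-gene level of each library in its colour. DC points lie lowest for 9 genes (Dusp2 and Dusp5 are lowest in Gr-1+ cells with equal FPKM sums), and Dusp4 is at 1.60 FPKM in Gr-1+ cells, 124 in DC and 4.87 in macrophages.

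Nfkbia encodes IκBα, the classical cytoplasmic inhibitor that NF-κB itself induces. Its level was 3141 FPKM in Gr-1+ cells, 874 in DC and 2622 in macrophages, ranking 33rd, 110th and 26th among all symbols of those libraries. DC stood low, and Gr-1+ cells and macrophages were close to each other. The differences were 1.84 for Gr-1+ cells minus DC, 0.26 for Gr-1+ cells minus macrophages and -1.58 for DC minus macrophages, none past the size rule. Nfkbie encodes IκBε, a related inhibitor, and was highest in macrophages, with 331 FPKM in Gr-1+ cells, 170 in DC and 507 in macrophages. Its differences were 0.96 for Gr-1+ cells minus DC, -0.61 for Gr-1+ cells minus macrophages and -1.57 for DC minus macrophages.

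Nfkbiz encodes IκBζ, which acts in the nucleus, where it helps to switch on secondary response genes, so it is a regulator rather than a plain brake. Among the 10 genes it had the greatest excess in Gr-1+ cells over DC, with 765 FPKM in Gr-1+ cells, 85.7 in DC and 321 in macrophages. Nfkbiz was higher in Gr-1+ cells than in DC by the size rule, the difference of 3.14 being exceeded by 2.19% of the 17329 genes compared. The difference of 1.25 for Gr-1+ cells minus macrophages and that of -1.89 for DC minus macrophages did not pass. Ratios within a library do not depend on how libraries are scaled, and Nfkbiz over Nfkbie was 2.31 in Gr-1+ cells, 0.505 in DC and 0.633 in macrophages. The ratio of Nfkbia to Nfkbie was 9.48 in Gr-1+ cells, 5.15 in DC and 5.17 in macrophages.

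Tnfaip3 encodes A20, a ubiquitin-editing enzyme that shuts off signalling to the IκB kinase. It had 320 FPKM in Gr-1+ cells, 89.9 in DC and 208 in macrophages, the same order as Nfkbia. The differences of 1.82 for Gr-1+ cells minus DC, 0.62 for Gr-1+ cells minus macrophages and -1.20 for DC minus macrophages did not pass the size rule. With equal 75th percentiles, both Nfkbia (2.61) and Tnfaip3 (2.58) did pass in Gr-1+ cells against DC.

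NF-κB is known to induce Nfkbia, Nfkbie and Tnfaip3, and the stretches before their starts are shown to set its consensus beside these levels. Sequences are from RefSeq (GRCm38.p6), 5′ to 3′ on the gene's strand, limited to bases before the RefSeq start that lie outside GENCODE M21 exons, with matches to the NF-κB consensus in capitals.
Nfkbia (chr12:55492648-55492897, minus strand): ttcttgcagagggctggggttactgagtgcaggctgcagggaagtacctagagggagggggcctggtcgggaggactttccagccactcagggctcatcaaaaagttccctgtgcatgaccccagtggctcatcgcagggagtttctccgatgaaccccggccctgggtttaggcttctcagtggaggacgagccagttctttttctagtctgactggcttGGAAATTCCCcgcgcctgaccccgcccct
Nfkbie (chr17:45555450-45555699, plus strand): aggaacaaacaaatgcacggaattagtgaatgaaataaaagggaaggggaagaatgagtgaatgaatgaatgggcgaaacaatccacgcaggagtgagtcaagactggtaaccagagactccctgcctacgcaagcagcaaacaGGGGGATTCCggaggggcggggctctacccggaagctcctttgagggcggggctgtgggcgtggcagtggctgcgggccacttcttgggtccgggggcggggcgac
Tnfaip3 (chr10:19015411-19015547, minus strand): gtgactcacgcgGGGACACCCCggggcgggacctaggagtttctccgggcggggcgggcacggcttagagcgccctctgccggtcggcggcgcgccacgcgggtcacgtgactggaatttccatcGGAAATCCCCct

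Matches were sought on both strands of the 250 bases before the start, where 3.90% of the 32851 windows in the table hold the NF-κB consensus. Nfkbia held 1 match (29 to 20 bases before the start), Nfkbie 1 (106 to 97) and Tnfaip3 2 (125 to 116 and 12 to 3). Tnfaip3 has 2 windows in the table, and the other (chr10:19011964-19012213) held no match to any motif searched. Nfkbie and Tnfaip3 also held the AP-1 motif TGANTCA, as 6.75% of windows do. Of the 10 genes 8 had a window in the table, and no 2 matches in a window overlapped. A match describes letters only and says nothing about binding in these cells.

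Zfp36 encodes tristetraprolin, which binds AU-rich mRNAs such as that of Tnf and speeds their decay. Its level was 857 FPKM in Gr-1+ cells, 447 in DC and 965 in macrophages. The differences were 0.94 for Gr-1+ cells minus DC, -0.17 for Gr-1+ cells minus macrophages and -1.11 for DC minus macrophages, none past the size rule, and the sign between Gr-1+ cells and macrophages turned to 0.43 with equal 75th percentiles. Zfp36 made up 95.5% of the summed FPKM of its 3-gene family in Gr-1+ cells, 82.7% in DC and 92.9% in macrophages. Tnf had 106 FPKM in Gr-1+ cells, 20.4 in DC and 218 in macrophages, so that Zfp36 stood at 8.13 times Tnf in Gr-1+ cells, 21.9 times in DC and 4.42 times in macrophages. An antisense gene is annotated across Zfp36, and without known strandedness its reads cannot be told apart.

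Socs3 encodes an inhibitor of signalling by the receptors of G-CSF and the interleukin-6 family, which act through STAT3. It had 464 FPKM in Gr-1+ cells, 90.2 in DC and 328 in macrophages, and DC stood apart from the other libraries. Socs3 passed the size rule in Gr-1+ cells against DC with a difference of 2.35, although with equal FPKM sums the difference was 1.98 and did not pass. The differences were 0.50 for Gr-1+ cells minus macrophages and -1.85 for DC minus macrophages. Its share of the summed FPKM of 8 SOCS family genes was 75.2% in Gr-1+ cells, 48.8% in DC and 71.0% in macrophages. Over Stat3 it stood at a ratio of 2.74 in Gr-1+ cells, 0.612 in DC and 2.75 in macrophages.

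MAP kinase phosphatases remove phosphate from both the threonine and the tyrosine that activate a MAP kinase, and the nuclear enzyme DUSP1 acts mainly on p38 and JNK. Dusp1 was the most abundant of them in each library, with 3380 FPKM in Gr-1+ cells, 544 in DC and 2343 in macrophages, ranking 28th, 192nd and 34th among all symbols. DC stood well below both others. By the size rule Dusp1 was higher in Gr-1+ cells than in DC (2.63) and lower in DC than in macrophages (-2.10), the second of which did not hold with equal FPKM sums (-1.71). For Gr-1+ cells minus macrophages the difference was 0.53. The annotated span of Dusp1 on chromosome 17 (26505590 to 26562128, minus strand, GRCm38) overlaps 4 other genes, among them Ergic1 on the other strand with 19.9 FPKM in Gr-1+ cells, 70.0 in DC and 30.5 in macrophages.

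Dusp2 and Dusp5, nuclear phosphatases of which DUSP5 is selective for ERK, were nearly level between Gr-1+ cells and DC. Dusp2 had 298 FPKM in Gr-1+ cells, 275 in DC and 541 in macrophages, with differences of 0.12 for Gr-1+ cells minus DC, -0.86 for Gr-1+ cells minus macrophages and -0.98 for DC minus macrophages. Dusp5 had 162 FPKM in Gr-1+ cells, 150 in DC and 200 in macrophages, the narrowest span of the 10 genes, with differences of 0.11 for Gr-1+ cells minus DC, -0.31 for Gr-1+ cells minus macrophages and -0.42 for DC minus macrophages. None passed the size rule, and the sign for Gr-1+ cells minus DC turned with equal sums, at -0.25 for Dusp2 and -0.26 for Dusp5, while that of Dusp5 for Gr-1+ cells minus macrophages turned to 0.29 with equal 75th percentiles. Dusp1 exceeded Dusp2 by 11.3-fold in Gr-1+ cells, 1.98-fold in DC and 4.33-fold in macrophages. A gene annotated on the other strand overlaps Dusp5.

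The stretches before Dusp1, which passed the size rule in both comparisons with DC, and Dusp5, which differed least, are shown next. Capitals mark the cyclic AMP response element TGACGTCA in Dusp1 and the CArG boxes, sites of serum response factor, in Dusp5.
Dusp1 (chr17:26508520-26508722, minus strand): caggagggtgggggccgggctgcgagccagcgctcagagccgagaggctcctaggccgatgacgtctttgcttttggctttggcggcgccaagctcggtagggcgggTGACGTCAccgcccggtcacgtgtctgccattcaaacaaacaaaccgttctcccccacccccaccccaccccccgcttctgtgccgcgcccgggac
Dusp5 (chr19:53528895-53529108, plus strand): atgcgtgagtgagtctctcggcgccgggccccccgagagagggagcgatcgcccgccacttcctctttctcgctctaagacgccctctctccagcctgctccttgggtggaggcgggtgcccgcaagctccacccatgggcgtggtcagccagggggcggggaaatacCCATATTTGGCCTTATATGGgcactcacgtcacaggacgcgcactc

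The response element of Dusp1 lies 143 to 136 bases before the RefSeq start, and 1.55% of windows hold one. Dusp5 holds 2 adjoining CArG boxes, 82 to 73 and 72 to 63 bases before the start, where 1.47% of windows hold any. Zfp36 had 1 CArG box, and Zfp36 and Socs3 each had 1 match to TTCNNNGAA, the STAT element found in 7.02% of windows. The whole Zfp36 window lies within GENCODE M21 exons of that gene, so its matches fall in annotated exon sequence. The window of Dusp2 held none of the 5 motifs, and Dusp4 and Nfkbiz were not analysed here.

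Dusp4, a nuclear phosphatase of ERK and JNK, ran opposite to the other 9 genes in both comparisons with DC in the values as deposited. With equal FPKM sums, Dusp2 and Dusp5 shared its negative sign for Gr-1+ cells minus DC, at -0.25 and -0.26. It had 1.60 FPKM in Gr-1+ cells, 124 in DC and 4.87 in macrophages. Its value in Gr-1+ cells rested on about 9 fragments (95% Poisson interval 0.751 to 2.99 FPKM, counting error only) and lay below the silent-gene level, so it is not read as expression. The macrophage value rested on about 78 fragments (3.85 to 6.08 FPKM) and lay above that level. By the size rule Dusp4 was lower in Gr-1+ cells than in DC (-5.58) and higher in DC than in macrophages (4.41), with 28 of 17329 genes above that second difference. Both calls held under all alternatives run, but the sizes depended on them, from -6.96 with the silent-gene level subtracted to -3.53 with a pseudocount of 10 for Gr-1+ cells minus DC, and from 3.17 to 5.56 for DC minus macrophages, so the exact size is not determined. Dusp4 made up 0.0407% of the summed FPKM of the 10 MAP kinase phosphatase genes in Gr-1+ cells, 11% in DC and 0.154% in macrophages.

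All 10 B cell markers and 7 of 8 plasma cell markers passed the size rule upward in DC against macrophages, as Dusp4 did. So did 3 of 12 dendritic cell markers, 1 of 9 T and NK cell markers (Lck, 2.71) and 1.53% of all genes compared. Of 8 mast cell and eosinophil markers at 1 FPKM or more, 2 did (Kit, 2.09, and Prg2, 3.90). Irf4 is on both the plasma cell and the dendritic cell list and is counted in each. Likeness of pattern was measured as the Euclidean distance between log2(FPKM + 1) values centred over the 3 libraries. The nearest of 7086 genes was Pou2af1, a B cell transcriptional coactivator, at a distance of 0.13 and with 2.35 FPKM in Gr-1+ cells, 158 in DC and 5.76 in macrophages. The B cell marker Fcmr followed at 0.15, and the B cell markers ranked from 2 (Fcmr) to 125 (Pax5). Plasma cell markers ranked from 3 (Mzb1) and 4 (Jchain) to 342 (Xbp1) and 4093 (Prdm1), the last with a DC minus macrophage difference of -0.70. Dendritic cell markers reaching 10 FPKM ranked from 30 (Ccr7) and 94 (Flt3) to 1716 (Zbtb46) and 3823 (Batf3), the last with a DC minus macrophage difference of -1.0. The DC minus macrophage differences of the 10 B cell markers ran from 3.44 to 4.69, around the 4.41 of Dusp4. The T and NK cell markers and the mast cell and eosinophil markers were not ranked by this distance. Whether the Dusp4 of the DC library came from dendritic cells or from any of these other cells was not tested.

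Shares within families do not depend on scaling between libraries, and which library stood apart differed by gene. Dusp1 made up 85.9% of the phosphatase sum in Gr-1+ cells, 48.2% in DC and 74.2% in macrophages. Dusp2 made up 7.57% in Gr-1+ cells, 24.3% in DC and 17.1% in macrophages, and Dusp5 4.11%, 13.2% and 6.35%. Within the IκB family of 6 genes, Nfkbia varied less, at 61.0% in Gr-1+ cells, 54.5% in DC and 61.9% in macrophages, whereas Nfkbiz was set apart in Gr-1+ cells, making up 14.9%, against 5.34% in DC and 7.58% in macrophages. Nfkbie made up 6.43% in Gr-1+ cells, 10.6% in DC and 12.0% in macrophages.

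**Figure D2:**
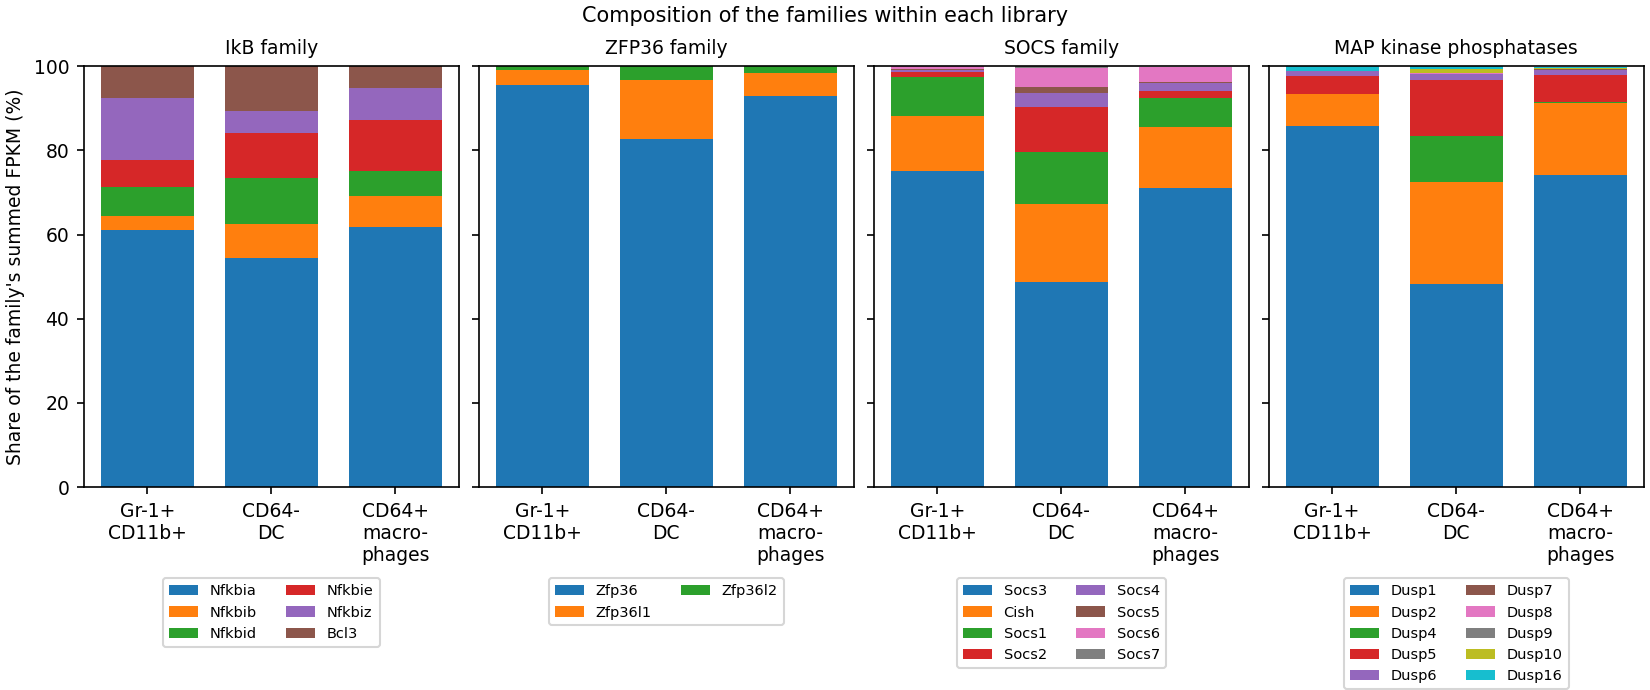
Share (%) of each gene in the summed FPKM of its family within each library, for 6 IκB, 3 ZFP36, 8 SOCS and 10 MAP kinase phosphatase genes, with Gr-1+ CD11b+ cells left, CD64- DC in the middle and CD64+ macrophages right. Dusp1 makes up 85.9% of the phosphatase sum in Gr-1+ cells, 48.2% in DC and 74.2% in macrophages.

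Counted by comparison, Gr-1+ cells against DC gave 3 of 10 genes higher (Nfkbiz, Socs3 and Dusp1) and 1 lower (Dusp4), where 3.65% of the 17329 genes reaching 1 FPKM in some library were higher and 6.28% lower. Shares in this paragraph include the many genes under 10 FPKM in every library, which could not be called, while all 10 inhibitor genes could. The median difference of the 10 genes was 1.39, beside 0.01 over all genes. Gr-1+ cells against macrophages gave 0 of 10 in either direction, where 1.41% of genes were higher and 3.41% lower, and the median was 0.04, beside 0.10. DC against macrophages gave 1 higher (Dusp4) and 1 lower (Dusp1), where 1.53% of genes were higher and 2.31% lower, with a median of -1.39, beside -0.05. The first and last of these comparisons share the DC library, so their medians are not independent.

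**Figure D3:**
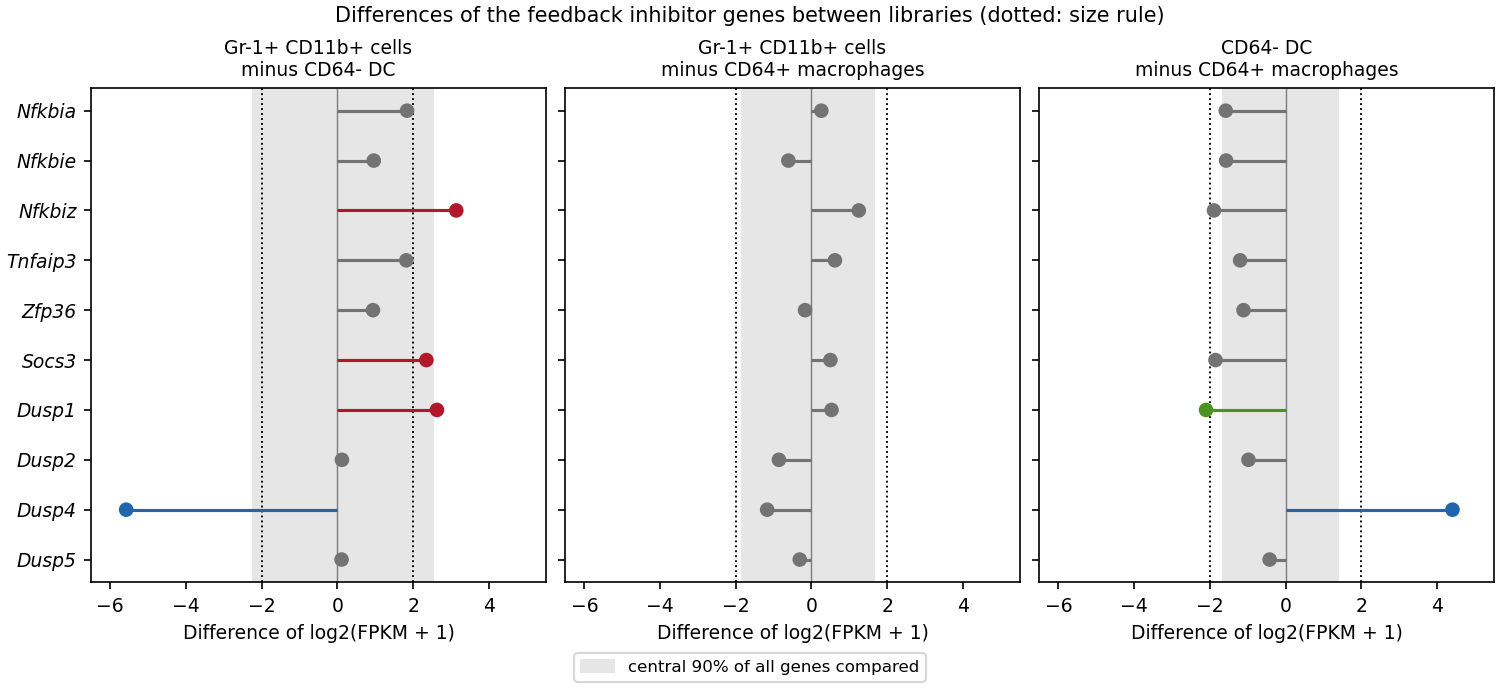
Difference of log2(FPKM + 1) for each inhibitor gene in the 3 comparisons, the population named first in each title minus the other. Dotted lines mark 2 log2 units, coloured points pass the size rule in the colour of the higher library (red Gr-1+ CD11b+ cells, blue DC, green macrophages), and the grey band spans the central 90% of all genes (-2.22 to 2.51, -1.84 to 1.64 and -1.66 to 1.37). Nfkbiz, Dusp1 and Dusp4 lie outside the band for Gr-1+ cells minus DC; the small differences of Dusp2 and Dusp5 there change sign with equal FPKM sums, and those of Zfp36 and Dusp5 for Gr-1+ cells minus macrophages with equal 75th percentiles.

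**Figure D4:**
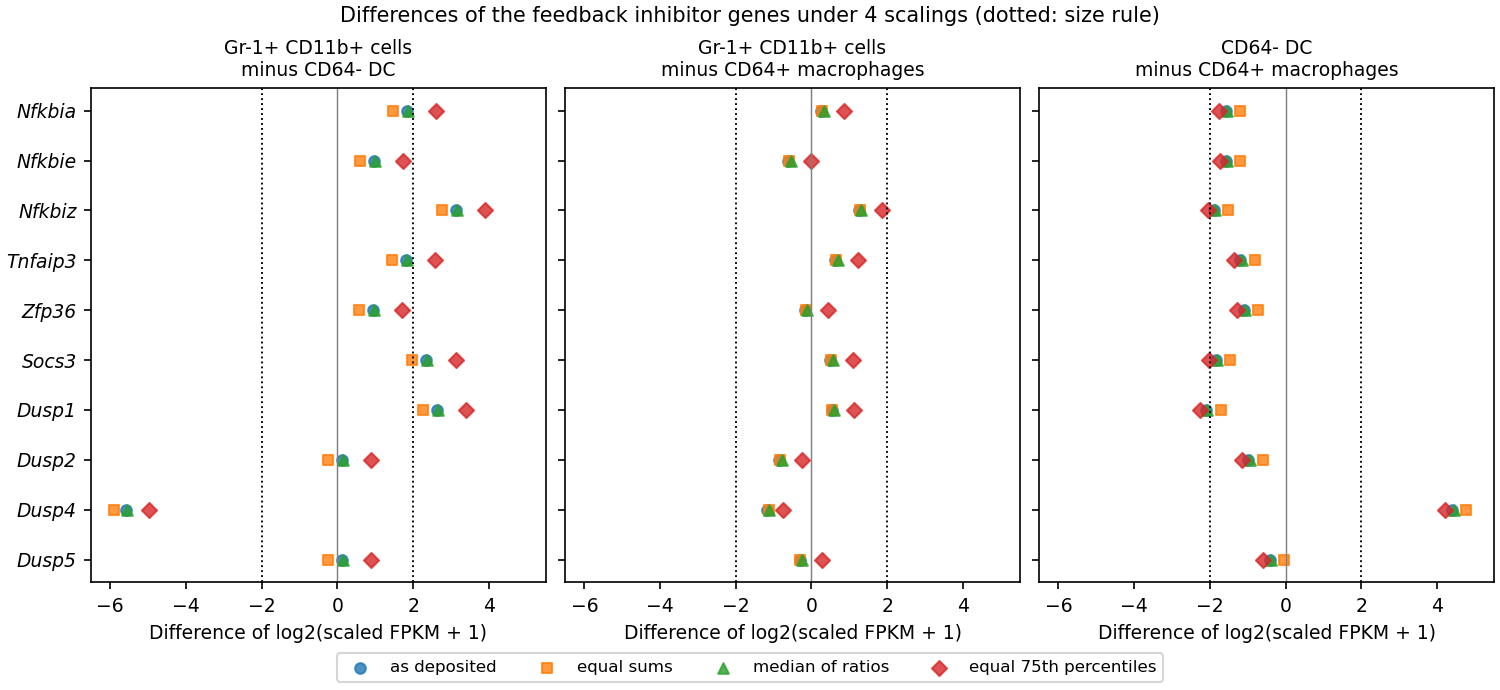
Difference of log2(scaled FPKM + 1) for each inhibitor gene in the 3 comparisons under 4 scalings of the libraries, 1 marker per scaling, with dotted lines at 2 log2 units. The scalings shift all genes together, so Dusp2 and Dusp5 cross 0 for Gr-1+ cells minus DC, as do Zfp36 and Dusp5 for Gr-1+ cells minus macrophages, while Dusp4 stays past the dotted line in both comparisons with DC.

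Genes of the NF-κB subunits gave 0 calls among 5 in any comparison, with a median of -0.15 for Gr-1+ cells minus DC. Rela, the main activating subunit, had 152 FPKM in Gr-1+ cells, 112 in DC and 139 in macrophages, and the ratio of Nfkbia to Rela was 20.7 in Gr-1+ cells, 7.78 in DC and 18.9 in macrophages. Nfkb2 had 131 FPKM in Gr-1+ cells, 94.4 in DC and 107 in macrophages. Relb, its partner in the noncanonical pathway, had 98.7 FPKM in Gr-1+ cells, 109 in DC and 115 in macrophages. The list of other IκB family genes, which shares Nfkb1 and Nfkb2 with the subunits, also gave 0 calls among 5. The nuclear IκB gene Bcl3 had 388 FPKM in Gr-1+ cells, 169 in DC and 221 in macrophages, Nfkbid had 354 FPKM in Gr-1+ cells, 178 in DC and 254 in macrophages, and Nfkbib had 170 FPKM in Gr-1+ cells, 127 in DC and 309 in macrophages.

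Among 13 IκB kinase and adaptor genes, 1 passed the rule in Gr-1+ cells against DC and 0 in the other comparisons. It was Myd88, the adaptor of most Toll-like receptors, with 409 FPKM in Gr-1+ cells, 92.7 in DC and 263 in macrophages. Irak1 was not past the rule, with 32.9 FPKM in Gr-1+ cells, 69.8 in DC and 44.3 in macrophages, nor was the kinase gene Ikbkb, with 14.2 FPKM in Gr-1+ cells, 55.2 in DC and 41.6 in macrophages. Of 12 A20 partners and related brakes, 1 was higher and 2 were lower in Gr-1+ cells than in DC. Rnf11, which works with A20, was the higher one, with 91.6 FPKM in Gr-1+ cells, 16.6 in DC and 27.0 in macrophages. Otulin, a deubiquitinase of linear chains, was lower, with 22.3 FPKM in Gr-1+ cells, 116 in DC and 60.2 in macrophages. Sigirr, an inhibitory receptor of the interleukin-1 family, was lower too and was higher in DC than in macrophages, with 1.33 FPKM in Gr-1+ cells, 20.3 in DC and 2.13 in macrophages, the first and last of these under the silent-gene level. Tax1bp1, an A20 adaptor, had the highest mean of that list over the libraries, with 125 FPKM in Gr-1+ cells, 91.5 in DC and 128 in macrophages. In DC, Otulin stood above it.

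Of 9 mRNA decay genes, 0 passed in any comparison. Zfp36l1, a paralogue of Zfp36, had 32.7 FPKM in Gr-1+ cells, 76.3 in DC and 57.8 in macrophages, and the deadenylase gene Cnot8 had 16.2 FPKM in Gr-1+ cells, 51.4 in DC and 33.8 in macrophages. The 7 other SOCS genes gave 0 calls as well. The most abundant, Cish, had 79.6 FPKM in Gr-1+ cells, 34.1 in DC and 67.5 in macrophages, and Socs1 had 57.7 FPKM in Gr-1+ cells, 22.7 in DC and 32.0 in macrophages. On the STAT3 axis of 9 genes, Csf3r, the G-CSF receptor gene and a neutrophil marker, passed in all 3 comparisons, with 838 FPKM in Gr-1+ cells, 9.85 in DC and 63.6 in macrophages. Il6ra was lower in DC than in macrophages, with 14.7 FPKM in Gr-1+ cells, 5.46 in DC and 27.4 in macrophages. Stat3 itself had 170 FPKM in Gr-1+ cells, 147 in DC and 119 in macrophages.

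The remaining MAP kinase phosphatases were far less abundant than Dusp1. Of 5 such genes at 1 FPKM or more, Dusp16, which acts on JNK and p38, was higher in Gr-1+ cells than in DC, with 42.5 FPKM in Gr-1+ cells, 6.98 in DC and 11.6 in macrophages. Dusp6, a cytoplasmic ERK phosphatase, did not pass, with 45.8 FPKM in Gr-1+ cells, 15.1 in DC and 43.8 in macrophages. Of 9 atypical small Dusp genes, 1 passed, Dusp14, which was lower in Gr-1+ cells than in DC, with 7.38 FPKM in Gr-1+ cells, 33.8 in DC and 13.6 in macrophages, the first value under the silent-gene level. The Sprouty and Spred genes, inhibitors of the path from receptors to ERK, gave 0 calls among 4 at 1 FPKM or more. The highest of them, Spred1, had 5.19 FPKM in Gr-1+ cells, 3.66 in DC and 14.7 in macrophages.

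Among 14 MAP kinase and upstream kinase genes at 1 FPKM or more, the p38 genes diverged. Mapk13, encoding p38δ, was higher in Gr-1+ cells than in either other population, with 128 FPKM in Gr-1+ cells, 13.7 in DC and 18.4 in macrophages. Mapk11, encoding p38β, was listed at 0 in Gr-1+ cells and had 23.2 FPKM in DC and 0.523 in macrophages. Mapk14, encoding p38α, a target of DUSP1, had 51.1 FPKM in Gr-1+ cells, 37.8 in DC and 52.8 in macrophages. The ratio of Dusp1 to Mapk14 was 66.2 in Gr-1+ cells, 14.4 in DC and 44.4 in macrophages. Map2k3, which activates p38, had 323 FPKM in Gr-1+ cells, 104 in DC and 206 in macrophages.

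Of 15 cytokine and inflammatory genes induced by NF-κB, 9 were higher in Gr-1+ cells than in DC (median difference 2.36), where 3.65% of all genes were. The 6 others had negative differences there. In DC, 10 were lower than in macrophages (median -2.62), where 2.31% of all genes were. Between Gr-1+ cells and macrophages, 1 was higher (Cxcl3) and 2 were lower (Il10 and Ccl2), with a median of -0.63. Of all genes, 1.41% were higher and 3.41% lower there. Il1b had 13360 FPKM in Gr-1+ cells, 1894 in DC and 11640 in macrophages. The neutrophil attractant gene Cxcl2 had 2110 FPKM in Gr-1+ cells, 107 in DC and 975 in macrophages, and Cxcl3 had 605 FPKM in Gr-1+ cells, 12.7 in DC and 58.7 in macrophages. Il23a, a subunit of interleukin-23, had 120 FPKM in Gr-1+ cells, 6.93 in DC and 132 in macrophages. Of 22 immediate early genes, which such signals induce rapidly, 2 were higher and 1 lower in Gr-1+ cells than in DC (median 0.26), 1 was higher and 2 lower in Gr-1+ cells than in macrophages (median 0.26), and 0 were higher and 1 lower in DC than in macrophages (median -0.58). Fos had 1589 FPKM in Gr-1+ cells, 676 in DC and 1802 in macrophages, and the ratio of Dusp1 to Fos was 2.13 in Gr-1+ cells, 0.805 in DC and 1.30 in macrophages.

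**Figure D5:**
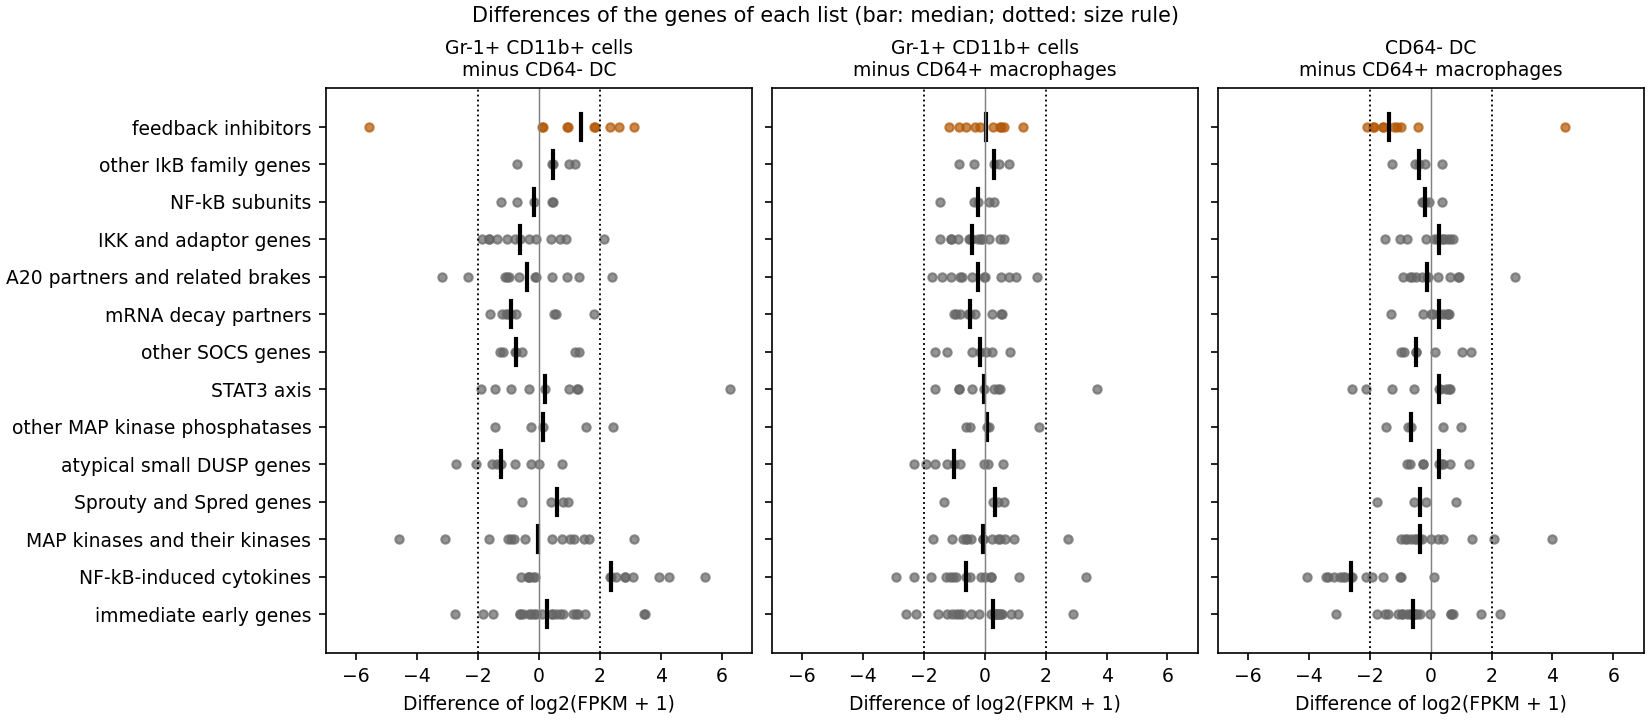
Difference of log2(FPKM + 1) for the genes of 14 lists in the 3 comparisons, 1 point per gene, with a bar at each list's median and dotted lines at 2 log2 units. For Gr-1+ cells minus DC the medians are 1.39 for the feedback inhibitors, 2.36 for NF-κB-induced cytokines and 0.26 for immediate early genes.

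The genes closest in pattern to each other inhibitor were found by the same distance over 3 libraries, among 7087 genes reaching 10 FPKM. Symbols that are only codes, and immunoglobulin or T cell receptor segments, were passed over in naming the nearest genes. The counts within a distance of 0.25 include them. Nfkbia lay nearest to Ccrn4l (0.025) and Marcks (0.046), Nfkbie to Mxi1 (0.052) and Sat1 (0.053), and Tnfaip3 to Atp8b4 (0.01) and Csrnp1 (0.027). Nfkbiz lay nearest to Colec12 (0.04) and to the olfactory receptor gene Olfr557 (0.05), one of the genes behind the silent-gene level. Socs3 lay nearest to Pira2 (0.064) and the ferritin gene Fth1 (0.073), Zfp36 to Slc6a6 (0.047) and C3 (0.065), and Dusp1 to Mtus1 (0.056) and Tpd52 (0.091). Dusp2 lay nearest to Rnd3 (0.0078) and Opa3 (0.02), and Dusp5 to Rhoa (0.02) and Smim19 (0.021). Within a distance of 0.25 there were 189 genes for Dusp5 and 113 for Dusp2, against 19 for Dusp1 and 4 for Dusp4.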

How the data were processed

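For every gene symbol, a file per library gives an FPKM value as deposited by the authors. The submitters' processing notes name TopHat2 2.0.13, Bowtie2 2.2.3, SAMtools 0.1.19 and Cufflinks 2.2.1 and the build mm10, without role or order. Full-length cDNA was made with a SMART-Seq HT kit before Nextera library preparation, per the labels' protocols. The gene annotation, strandedness and filters are not given in the sources used here.

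Values were used unchanged, with a pseudocount of 1. Depth was estimated from the steps of low values of single-transcript genes over 800 nt (GENCODE M21, GRCm38). A single fragment on 1 kb was worth 0.463 FPKM for Gr-1+ CD11b+ cells, 0.126 for DC and 0.171 for macrophages. Of those values, 72.8%, 76.0% and 72.0% fell within 0.2 of whole multiples (40% expected at random for a unit fixed beforehand). The unit was chosen to fit these same values best, so the gap from 40% overstates the fit. Fragment numbers are therefore approximate.

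The members, lists, rules and ratios were chosen with earlier results of these data known. The rule for names took, of each further list, the 3 genes with the highest mean FPKM and up to 4 past the size rule, of which the text gives a selection, and of marker lists the sums and genes at 0. Of 232 list genes 231 were in the tables. Alternatives were pseudocounts of 0.1 and 10, floors of 1 and 30 FPKM, log2 limits of 1 and 3, 3 scalings and subtraction of the silent-gene level. Protein sequences were not analysed here. Python 3.11.15, NumPy 2.4.6, pandas 2.3.3, SciPy 1.17.1 and matplotlib 3.10.9 were used.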

Additional observations from a re-analysis of the deposited data

How the results depend on the processing

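Of 300 differences of single genes under the alternatives, 282 stayed on their side of the size rule, 13 newly passed and 5 no longer passed. Pseudocounts, median-of-ratios scaling and subtraction of the silent-gene level changed no call on the 10 inhibitor genes. The alternative floors are counted in the 300 but could not change a call, so they say nothing about stability. Apart from Dusp4 between Gr-1+ cells and macrophages, the upper value of each difference was at least 124 FPKM, above every floor. That Dusp4 difference, -1.17, was short of the log2 limit whatever the floor. The background over all genes did move. With the silent-gene level subtracted, its median for Gr-1+ cells minus DC was -1.07, with 2.34% of all genes higher and 19.5% lower. For Gr-1+ cells minus macrophages, 1.19% of all genes were then higher and 12.5% lower. A floor of 1 FPKM gave 10.1% higher and 7.23% lower for Gr-1+ cells minus DC. With a log2 limit of 1, 5 genes were higher in Gr-1+ cells than in DC, 1 was higher in Gr-1+ cells than in macrophages, and 7 were lower in DC than in macrophages, where 6.03%, 4.72% and 5.69% of all genes passed. With a limit of 3 these counts were 1, 0 and 0, where 2.07%, 0.577% and 0.652% of all genes passed. Equal FPKM sums shift all genes by -0.37 for Gr-1+ cells minus DC and by 0.39 for DC minus macrophages. They gave medians of the 10 genes of 1.02 and -1.0, beside -0.27 and 0.20 over all genes, and 0 genes lower in DC than in macrophages, where 1.52% of all genes were. Equal 75th percentiles shift the 3 comparisons by 0.77, 0.60 and -0.17. They gave medians of 2.15 for Gr-1+ cells minus DC, 0.64 for Gr-1+ cells minus macrophages and -1.55 for DC minus macrophages, beside 0.62, 0.55 and -0.16 over all genes. There 5 genes were higher in Gr-1+ cells than in DC and 3 lower in DC than in macrophages, where 6.45% and 2.51% of all genes were. No paired analysis was possible because each population has 1 library, and for the same reason no library could be left out. Dusp4, Dusp14, Sigirr and Mapk11 lay below the silent-gene level in Gr-1+ cells, so the sizes of their differences there are uncertain.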
